A study of Mus musculus with 10 samples.

Results

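The Dppa genes (developmental pluripotency associated) were named for transcripts that accompany pluripotency in mouse embryos and embryonic stem cells. The 4 genes described here are Dppa2, Dppa3, Dppa4 and Dppa5a, and their members on the array are all probe sets whose annotated gene symbol is exactly 1 of these names. There were 5 such probe sets among the 45101 of the array, 2 for Dppa2 and 1 for each other gene, and all 5 passed the filter on low signals. The array gave 13251 genes that could be tested in all. The selection used names only and no measured value.

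The arrays held RNA from 3 groups of sorted mouse cells. AG-haESC are haploid embryonic stem cells from androgenetic blastocysts, whose genome is paternal, and 5 lines on a C57BL/6J background were measured once each. The lines AGH-OG-1, AGH-OG-2, AGH-OG-3 and AGH-OG-4 (replicates 1, 2, 4 and 5) had Oct4-EGFP as transgene and were at passages 14, 15, 12 and 14. The line AGH-EG-1 (replicate 3) had Actin-EGFP instead and was at passage 15. E14 is a wild-type diploid male embryonic stem cell line on a 129/Sv background at passage 17, measured on 3 arrays. MEF are wild-type diploid fibroblasts of B6D2F1 background at passage 2, from male d13.5 embryos, measured on 2 arrays. After staining of DNA with Hoechst 33342 (15 µg/ml), the 1n peak of AG-haESC and the 2n peak of the diploid E14 and MEF were sorted, so that cells in G1/G0 were compared. AG-haESC were grown on feeder cells with CHIR99021, an inhibitor of GSK3, and PD0325901, an inhibitor of MEK, while the sources used here name no medium for E14 and MEF. The 2 kinds of stem cell thus differed in ploidy, parental origin of the genome, strain, passage and transgene, and possibly in medium, and the effects of these cannot be told apart. The 3 E14 arrays are of a single line, so their spread holds none between diploid lines.

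Dppa2 and Dppa4 are nuclear proteins with a SAP DNA-binding domain that act as a pair. They bind GC-rich promoters, keep developmental genes in a poised chromatin state and act upstream of genes of the 2-cell embryo. Dppa3, also called Stella or PGC7, is a maternal and germ cell factor that protects DNA in the zygote from demethylation, and in other settings binds Uhrf1 and hinders maintenance methylation by Dnmt1. Dppa5a, also called Esg1, is a KH-domain protein that binds RNA and belongs to a family of oocyte and embryo proteins with Ooep and Khdc3. The gene table of assembly GRCm38.p6 places Dppa2 and Dppa4 beside each other on chromosome 16, Dppa3 between Gdf3 and Nanog on chromosome 6 and Dppa5a beside Ooep on chromosome 9.

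Signals are given as log2 of the deposited signal, on which a step of 1 is a doubling. A probe set is called changed when limma's p, adjusted by Benjamini-Hochberg over all 27505 probe sets kept, lies below 0.05 and the difference is at least 2-fold. Array medians lay between 55.9 and 68.0 on the linear scale, with the trimmed mean of every array at 500. Across 13251 genes, Pearson's r between AG-haESC arrays was 0.951 to 0.970, between E14 arrays 0.922 to 0.968 and between the MEF arrays 0.969. E14 replicate 3 stood apart from the other E14 arrays (r = 0.924 and 0.922), so the Dppa differences and the list counts that changed without it are also given without it. The fibroblast genes Col1a1, Col1a2 and Col3a1 stood at 13.60 to 15.04 in MEF, and the pluripotency factors Pou5f1 and Sox2 at 13.27 to 13.84 in all 8 stem cell arrays, as the labels have it. Cdx2, a trophectoderm factor, was not kept by the filter, and Gata6, a factor of primitive endoderm, stood at 6.53 ± 0.33 in AG-haESC (mean log2 signal ± SD, n = 5), against 6.76 ± 0.70 in E14 (n = 3).

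All 4 genes had high signals in both kinds of stem cell and lay below the array median in both fibroblast arrays. Between the stem cells, Dppa3 alone was called, at a 3.55-fold higher signal in AG-haESC than in E14. Dppa2 had a higher mean in AG-haESC that did not pass the test. When E14 replicate 3 was left out, 1 of its 2 probe sets was called and the other was not. Dppa4 and Dppa5a differed between AG-haESC and E14 by less than 0.1 on the log2 scale, and neither was called. Of the 5 probe sets 1 was called for AG-haESC against E14, higher in AG-haESC, where 7.26% of all probe sets were called in either direction and 4.37% were called higher. The arrays of AG-haESC and E14 did not overlap for that same probe set only, 1 of 5, and did not overlap for 20.2% of all probe sets.

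**Figure D1:**
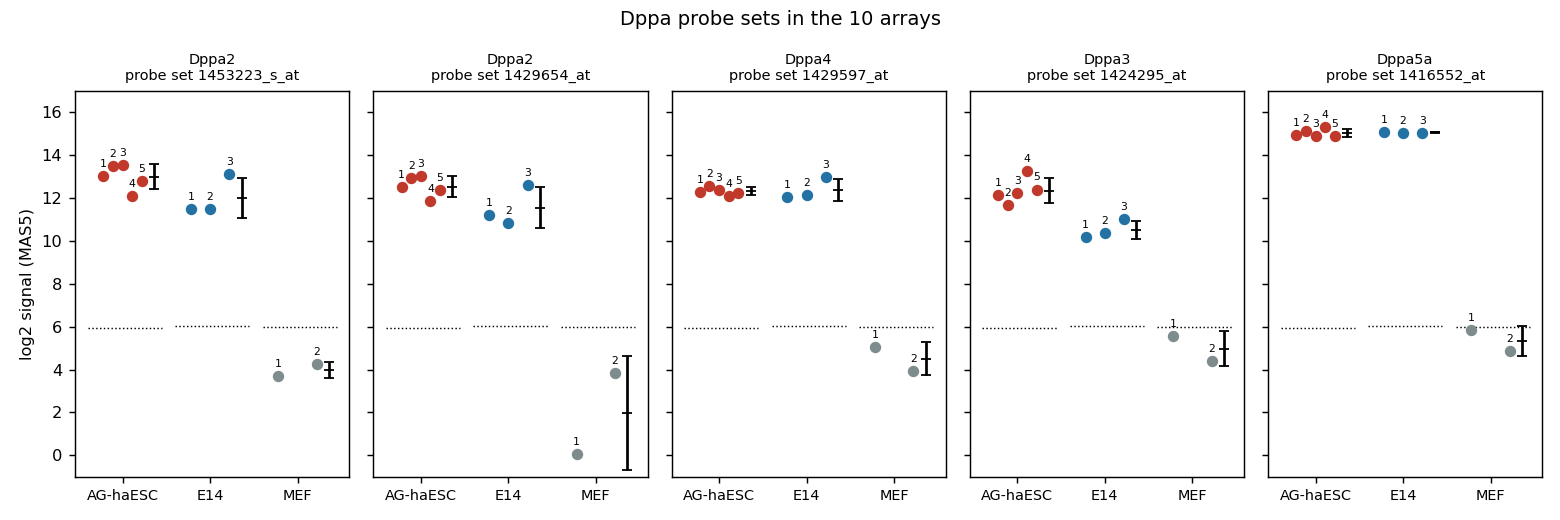
Log2 signal of the 5 Dppa probe sets in each of the 10 arrays, with the replicate number beside each point, bars for the mean ± SD of each group and a dotted line at the group's mean array median. All stem cell arrays lie between 10.17 and 15.34 and all MEF arrays at or below 5.83, and only for Dppa3 do all AG-haESC points lie above all E14 points.

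Dppa3, read by probe set 1424295_at, had log2 signals of 12.13, 11.66, 12.25, 13.28 and 12.40 in AG-haESC replicates 1 to 5, against 10.17, 10.36 and 11.01 in E14 replicates 1 to 3. Each of the 5 AG-haESC lines lay above each of the 3 E14 arrays, and the gap between the lowest line and the highest E14 array was 0.65. The means were 12.34 ± 0.59 in AG-haESC and 10.51 ± 0.44 in E14 (SD, n = 5 and n = 3). The difference was 1.83 ± 0.35 (SE), with a 95% interval of 1.06 to 2.60 and limma's adjusted p = 0.0062. In fold terms the interval ran from 2.08 to 6.06. The difference was 2.07 and was called when E14 replicate 3 was left out (adjusted p = 0.0044). The line with the Actin-EGFP transgene, at 12.25, lay within the range of the lines with Oct4-EGFP. The highest value, 13.28, came from AG-haESC replicate 4, the line at the lowest passage, and without it the difference was 1.59. As these are bulk samples, a higher share of cells with the transcript and more transcript per cell cannot be told apart here.

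Dppa2 was read by 2 probe sets that were designed from the same transcript record, so they are not independent measurements. Probe set 1453223_s_at stood at 13.02, 13.51, 13.56, 12.11 and 12.79 in AG-haESC, against 11.48, 11.49 and 13.10 in E14. Probe set 1429654_at stood at 12.50, 12.92, 13.04, 11.85 and 12.36 in AG-haESC, against 11.21, 10.84 and 12.62 in E14. With both, all lines lay above E14 replicates 1 and 2, while E14 replicate 3 lay above the lines 4, 5 and 1 and below the lines 2 and 3. After centring, the 2 probe sets differed by at most 0.20 in any of the 8 stem cell arrays.

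The Dppa2 means were 13.0 ± 0.59 in AG-haESC and 12.02 ± 0.93 in E14 with 1453223_s_at, differing by 0.97 ± 0.40 (SE, 95% interval 0.10 to 1.85, limma's adjusted p = 0.140). With 1429654_at they were 12.53 ± 0.48 in AG-haESC and 11.56 ± 0.94 in E14, differing by 0.98 ± 0.68 (SE, 95% interval -0.51 to 2.46, limma's adjusted p = 0.391). Neither probe set passed the test, and the intervals reach from near 0 or below it to more than 3-fold. Without E14 replicate 3 the difference for 1453223_s_at was 1.51 and was called (limma's adjusted p = 0.0106), and for 1429654_at it was 1.51 and was not called (adjusted p = 0.177). Without E14 replicate 1 or 2 it was 0.70 or 0.71 for 1453223_s_at, with adjusted p of 0.393 and 0.397.

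Dppa4, the partner of Dppa2 and its neighbour on chromosome 16, was read by probe set 1429597_at. It stood at 12.30, 12.58, 12.37, 12.08 and 12.24 in AG-haESC, against 12.05, 12.15 and 12.98 in E14. The groups overlapped, with E14 replicate 3 highest of the 8 arrays. The means were 12.31 ± 0.18 in AG-haESC and 12.39 ± 0.51 in E14, differing by -0.080 ± 0.26 (SE, limma's adjusted p = 0.880). The 95% interval of -0.65 to 0.49 holds no 2-fold difference in either direction. With each array centred on its median the log2 difference was 0.000625 and was not called. Without E14 replicate 3 the difference was 0.21, which was not called either. Whether Dppa2 and Dppa4 differed from each other in this contrast was not tested.

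Dppa5a, read by probe set 1416552_at, stood at 14.93, 15.13, 14.92, 15.34 and 14.87 in AG-haESC, against 15.09, 15.06 and 15.06 in E14. The E14 values lay inside the range of the haploid lines. The means were 15.04 ± 0.19 in AG-haESC and 15.07 ± 0.017 in E14, differing by -0.029 ± 0.18 (SE, 95% interval -0.43 to 0.38, limma's adjusted p = 0.941). Its sign turned with quantile normalization, to 0.077, and with median centring, to 0.052, and it was not called there either. Leaving out E14 replicate 3 gave -0.034. In the stem cell arrays between 0.024% and 0.151% of probe sets were brighter than this probe set, and whether its spots were saturated is not recorded in the sources used here, which would compress a difference.

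**Figure D2:**
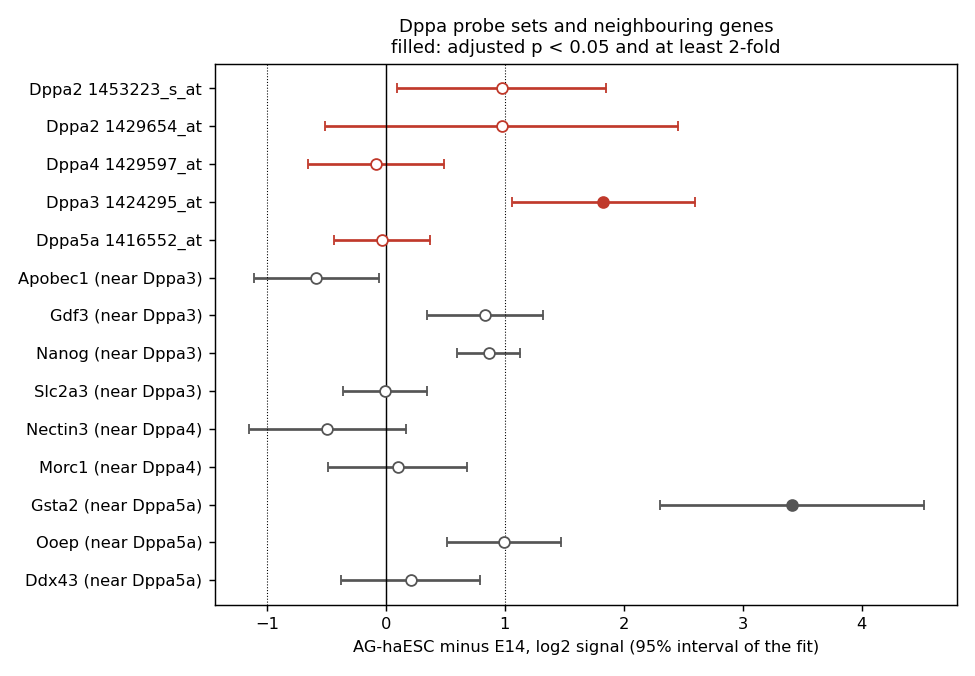
Difference in log2 signal, AG-haESC minus E14, with the 95% interval of the fit. The 5 Dppa probe sets are red and tested genes near them on the chromosome grey. Filled points are called and dotted lines mark a 2-fold difference. Dppa3 at 1.83 is the only filled Dppa point, Dppa4 and Dppa5a lie at -0.080 and -0.029, and both Dppa2 intervals are wide.

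Within the groups the 4 genes varied to different degrees. Among the AG-haESC lines the SD was 0.53 for Dppa2 (mean of its 2 probe sets) and 0.59 for Dppa3, against 0.18 for Dppa4 and 0.19 for Dppa5a, where the median gene had 0.29. The order of the lines was not shared. By replicate number, from low to high, it ran 4, 5, 1, 2, 3 for both Dppa2 probe sets, 4, 5, 1, 3, 2 for Dppa4, 2, 1, 3, 5, 4 for Dppa3 and 5, 3, 1, 2, 4 for Dppa5a. Line 4 was thus lowest for Dppa2 and Dppa4 and highest for Dppa3 and Dppa5a. With 5 lines no correlation between genes is given.

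Among the E14 arrays the SD was 0.93 for Dppa2, 0.44 for Dppa3, 0.51 for Dppa4 and 0.017 for Dppa5a, where the median gene had 0.33. E14 replicate 3 exceeded the mean of replicates 1 and 2 by 1.60 for Dppa2, 0.88 for Dppa4 and 0.74 for Dppa3, and differed by -0.015 for Dppa5a. Of all genes, 3.37% were higher in that array by at least as much as Dppa2, 10.04% by at least as much as Dppa4 and 12.4% by at least as much as Dppa3. The summed linear signal of 9 primed epiblast markers was 23062 in that array, against 10811 and 9931 in E14 replicates 1 and 2. This was not particular to primed markers. The sum of 13 methylation genes was 78768 there, against 52800 and 52791. Most gene lists given below had their highest E14 sum there, except the 2-cell and fibroblast lists and the genes around Nanog. The sum of 6 genes around Nanog was lower there, at 29670 against 43401 and 40183. The part of these levels in the Dppa values was not tested.

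**Figure D3:**
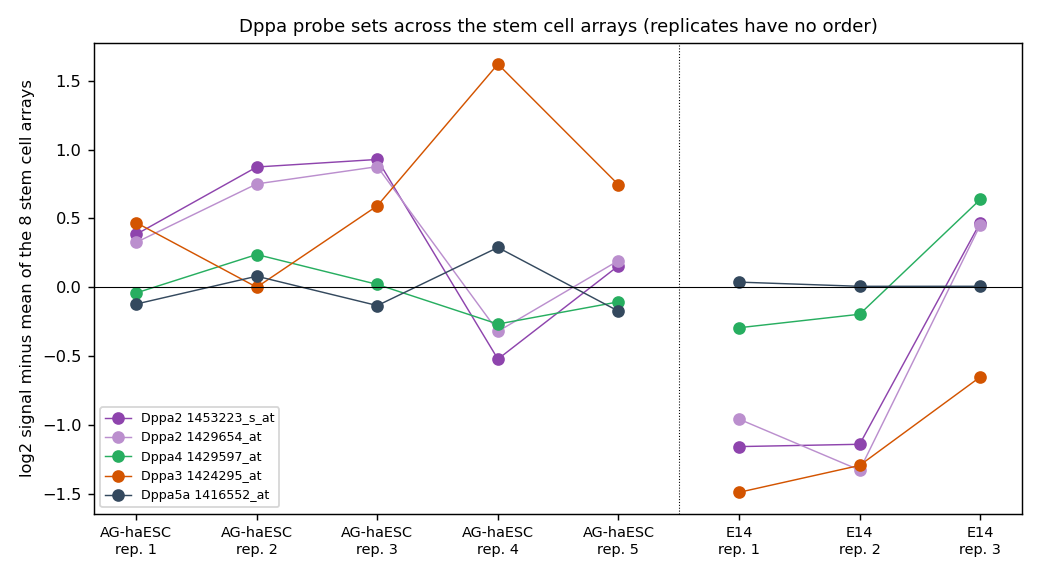
Log2 signal of each Dppa probe set minus its own mean over the 8 stem cell arrays, by array; lines join the points of a probe set as a guide and replicates have no order. Dppa3 is highest in AG-haESC replicate 4 where Dppa2 is lowest among the lines, E14 replicate 3 is high for Dppa2 and Dppa4, and Dppa5a stays between -0.17 and 0.29.

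Fibroblast markers moved with the stem cell groups. Of 19 fibroblast markers tested, 6 were called higher in AG-haESC and 0 lower, where 4.38% of all genes were called higher and 3.61% lower. The count called higher was 4 to 9 under the alternatives, and 9 without E14 replicate 3, where 1 marker was called lower. Col1a1, a collagen chain, differed by at least 3.89-fold, and Postn, a matrix protein, by at least 3.13-fold, as both lay below the array median in every E14 array. Col1a2 was 2.69 higher in log2 signal (SE 0.46, limma's adjusted p = 0.0034) and Col3a1 2.14 higher (SE 0.47, adjusted p = 0.0121). The summed linear signal of the list was 11333 to 23464 in AG-haESC and 11222 to 12692 in E14, against 205541 to 242149 in MEF. Above the array median lay 15 to 17 of the 19 markers in AG-haESC arrays, 9 to 11 in E14 arrays and 19 in MEF arrays, and no marker read 0 in any array. Among the lines Col1a2 was highest in replicates 2 and 3, at 11.86 and 11.14, the same lines in which Dppa2 and Dppa4 were highest. Dppa3 was lowest in replicate 2, and Dppa3 and Dppa5a were highest in replicate 4. The part of fibroblast RNA in the differences between AG-haESC and E14 was not tested.

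Against fibroblasts, all 5 Dppa probe sets were called higher in AG-haESC and all 5 in E14, where 19.2% of probe sets were called higher in AG-haESC and 19.8% in E14. Both comparisons use the same 2 MEF arrays. Every MEF value lay below the median of its array, so each difference is a lower bound, with MEF put at the array medians. MEF signals were 3.72 and 4.24 for Dppa2 with 1453223_s_at, 0.08 and 3.85 with 1429654_at, 5.05 and 3.95 for Dppa4, 5.56 and 4.41 for Dppa3 and 5.83 and 4.85 for Dppa5a. The array medians correspond to log2 values near 6, so these readings hold mostly background.

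Dppa5a was at least 531-fold higher in AG-haESC and at least 542-fold higher in E14 than in MEF (limma's adjusted p = 6.18e-11 and 1.87e-10). Dppa4 was at least 80.5-fold higher in AG-haESC and at least 85.1-fold higher in E14 (adjusted p = 7.50e-09 and 1.75e-08). Dppa2 was at least 129-fold higher in AG-haESC and at least 65.8-fold higher in E14 with 1453223_s_at (adjusted p = 4.75e-08 and 2.83e-07). With 1429654_at it was at least 93.8-fold higher in AG-haESC and at least 47.7-fold higher in E14 (adjusted p = 7.42e-07 and 3.64e-06). Dppa3 was at least 82.1-fold higher in AG-haESC and at least 23.1-fold higher in E14 (adjusted p = 7.82e-08 and 1.70e-06). The bounds are set by the array medians, not by a level in MEF, so their order over the genes is not that of the true differences. The adjusted p are those of the differences from the MEF signals as read, and the bounds themselves were not tested.

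The nearest tested protein-coding genes on each side of the Dppa genes on the chromosome were read in the same fit. Gdf3, a TGF-beta ligand on one side of Dppa3, stood at 12.03 ± 0.35 in AG-haESC and 11.20 ± 0.41 in E14, differing by 0.83 ± 0.22 (SE, limma's adjusted p = 0.0313). Nanog, the pluripotency factor on the other side, stood at 14.12 ± 0.07 in AG-haESC and 13.25 ± 0.23 in E14, differing by 0.87 ± 0.12 (SE, adjusted p = 0.00096). Both passed the adjusted p and stayed under 2-fold, so neither was called. Without E14 replicate 3 Gdf3 was called, with a difference of 1.07. Slc2a3, a glucose transporter beyond Nanog, differed by -0.0074 ± 0.16 (adjusted p = 0.985). Of 6 genes tested around Nanog 0 were called in either direction, against 1 called higher without E14 replicate 3. Among all genes 4.38% were called higher and 3.61% lower in the main fit.

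Ooep, the KH-domain gene beside Dppa5a, stood at 13.06 ± 0.11 in AG-haESC and 12.07 ± 0.22 in E14, and its difference of 0.99 ± 0.22 (SE) passed limma's adjusted p at 0.0124 and fell just short of 2-fold. Without E14 replicate 3 it was called, with a difference of 1.12. Gsta2, a glutathione transferase on the other side, was called at least 2.90-fold higher in AG-haESC (adjusted p = 0.0014), with all E14 arrays below the array median. Khdc3, another KH-domain relative, differed by -1.23 ± 0.40 (SE, adjusted p = 0.0691). Of the 4 genes tested on the list with it, Khdc3, Ooep, Tle6 and Padi6, 0 were called, where 4.38% of all genes were called higher and 3.61% lower. Not all 4 are KH-domain genes. Khdc3 differed by -0.79 without E14 replicate 3 and was not called, and 1 of the 4 was then called higher. Khdc3 was called lower without AG-haESC replicate 2, at -1.46. Morc1, next to Dppa2 and Dppa4 on chromosome 16 and known for silencing transposons in male germ cells, differed by 0.099 ± 0.27 (adjusted p = 0.852).

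Genes that act with the Dppa proteins were read from lists of related genes. Of 13 genes of DNA methylation and its partners of Dppa3, 0 were called in either direction, with a median difference of -0.24 against -0.082 over all genes. This count is near the shares over all genes, 4.38% called higher and 3.61% lower. Uhrf1, the recruiter of Dnmt1 that Dppa3 binds, stood at 12.89 ± 0.14 in AG-haESC and 13.15 ± 0.05 in E14, differing by -0.26 ± 0.13 (SE, limma's adjusted p = 0.217). Dnmt1, the maintenance methyltransferase, differed by -0.37 ± 0.13 (adjusted p = 0.0938), and Dnmt3l, a cofactor of de novo methylation, by 0.75 ± 0.32 (adjusted p = 0.151). With E14 replicate 3 left out, 2 of the 13 were called higher, and Dnmt3l was then called at 1.04 (adjusted p = 0.0490). Trim28, a corepressor at imprinted loci, differed by -0.26 ± 0.10 (adjusted p = 0.124).

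Of 18 genes of bivalent chromatin, the setting in which Dppa2 and Dppa4 act, 0 were called, with a median of -0.039. As only 4.38% of all genes were called higher and 3.61% lower, 0 of 18 is near those shares. Suz12, a core subunit of PRC2, and Kdm2b, which brings PRC1 to CpG islands, differed by 0.42 ± 0.10 and 0.55 ± 0.15 (SE) and passed limma's adjusted p (0.0195 and 0.0377) under 2-fold. Of 20 genes listed for the 2-cell programme only 3 were tested, Tcstv1, Usp17la and Eif1a, and 0 were called higher and 1 lower. The median of 0.17 is the difference of Eif1a, which stood at 12.45 in AG-haESC, 12.27 in E14 and 12.25 in MEF. Tcstv1 lay below the array median in every E14 array and was not called. The gene called lower, Usp17la, a deubiquitinase, differed by -1.13 ± 0.34 (adjusted p = 0.0482), and its call was lost under 11 of 19 alternatives. Zscan4c was not analysed here.

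Of 15 pluripotency factors, 1 was called higher and 1 lower, with a median of 0.098, where 4.38% of all genes were called higher and 3.61% lower. The count called higher ran from 0 to 2 and differed from 1 under 14 of 19 alternatives, and the count called lower was 0 under 3 of them, among them without E14 replicate 2 or 3. Prdm14, a factor of naive pluripotency and of germ cell fate, was 1.43 ± 0.37 higher (SE, limma's adjusted p = 0.0263), and Zfp42, also called Rex1, was 1.56 lower, at 11.54 ± 0.44 in AG-haESC and 13.10 ± 0.47 in E14 (adjusted p = 0.0244). Neither call held without E14 replicate 3, where the differences of Prdm14 and Zfp42 were 1.26 and -1.29. Neither Pou5f1 nor Sox2 was called, at 0.030 ± 0.13 and at -0.041 ± 0.16 (0.040 for Sox2 with median centring). Of 12 ES cell-associated transcripts, 0 were called higher and 1, Zfp42, lower, with a median of -0.15. The count called higher was 2 without E14 replicate 3, where Gdf3 and Dnmt3l were called, and the count called lower was 0 without E14 replicate 2 or 3 and 2 without AG-haESC replicate 2. L1td1, an RNA-binding protein of this list, differed by -0.17 ± 0.29 (adjusted p = 0.763), and by 0.24 without E14 replicate 3.

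Germ cell genes, among which Dppa3 is a classic marker, moved in both directions. Of 13 tested, 3 were called higher and 1 lower, with a median of -0.21, where 4.38% of all genes were called higher and 3.61% lower. Ifitm3, a surface marker of early germ cells, differed by 2.38 ± 0.61 (SE, limma's adjusted p = 0.0265), although E14 replicate 3 lay at 13.30, above 1 of the 5 lines, and without that array the difference was 3.35. Tdrd7, a germ granule protein, was 1.21 ± 0.35 higher (adjusted p = 0.0452), and Prdm14 was the third. Ifitm3 and Tdrd7 are not particular to stem cells here, as they stood at 14.12 and 9.04 in MEF, against 13.75 and 8.23 in AG-haESC. Prdm14 stood at 1.41 in MEF, against 11.05 in AG-haESC. Dnd1, an RNA-binding protein needed by germ cells, was lower by 1.17, at 7.71 ± 0.53 in AG-haESC and 8.89 ± 0.16 in E14 (adjusted p = 0.0252). The count called higher was 0 or 1 under 8 of the alternatives tried, among them each E14 array and the AG-haESC replicates 1, 2, 3 and 5 left out in turn. Without E14 replicate 3 the difference of Tdrd7 was 0.72. The call of Dnd1 was lost without AG-haESC replicate 3 or 5 or any E14 array.

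Of 9 primed epiblast markers, 0 were called higher and 3 lower, with a median of -0.87, where 4.38% of all genes were called higher and 3.61% lower. The median centred level of the list was 0.18 to 0.62 in AG-haESC arrays, against 0.93 to 2.15 in E14 arrays, with replicate 3 the highest. Leaving out that array, 3 markers were called lower too. Lef1 stood at 8.09 ± 0.57 in AG-haESC and 9.63 ± 0.10 in E14, Otx2 at 9.14 ± 0.54 in AG-haESC and 10.48 ± 0.32 in E14, and Cldn6 at 7.12 ± 0.31 in AG-haESC and 8.52 ± 0.33 in E14 (limma's adjusted p = 0.0054, 0.0155 and 0.0056). Of 9 primitive endoderm markers 0 were called higher and 1 lower, Lama1, a laminin chain, by at least 2.33-fold, with a median of 0.032. Of 8 trophoblast markers 1 was called higher and 0 lower, Gata3, a GATA factor, by at least 2.95-fold, with a median of 0.61. The trophoblast count called higher was 1 to 4 under the alternatives, 4 without E14 replicate 3 and 2 without E14 replicate 1.

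Against MEF, where 19.6% of genes were called higher in AG-haESC, the same lists were counted. The genes called higher in AG-haESC were 12 of 12 ES cell-associated transcripts, 13 of 15 pluripotency factors, 10 of 13 germ cell genes, 9 of 13 methylation genes and 11 of 18 genes of bivalent chromatin. They were also 6 of 9 primed epiblast, 3 of 8 trophoblast and 2 of 9 primitive endoderm markers. Of the genes around Nanog 3 of 6 were called higher, of the list with Khdc3 3 of 4 and of the 2-cell list 2 of 3. Called lower were 4 primitive endoderm markers, 2 genes around Nanog, and 1 gene each of the pluripotency, trophoblast and primed epiblast lists. All 19 fibroblast markers were called lower. The lists were chosen with the data known, so the counts are a description.

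The genes whose profiles over the 10 arrays were most like each Dppa gene were named by the root-mean-square (RMS) difference of centred log2 signals among 13247 genes. For Dppa4 they were L1td1 (0.22), Zfp982 (0.28), a zinc finger gene, and Rbmxl2 (0.42). For Dppa5a they were Epcam (0.27), an epithelial adhesion molecule, Nanog (0.51) and Gm13261 (0.51). For Dppa2, with 1453223_s_at, they were Dnmt3l (0.62), L1td1 (0.64) and Zfp936 (0.66). For Dppa3 they were Ooep (0.54), Mapt (0.65), which encodes tau, and Folr1 (0.66), a folate receptor.

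The other Dppa genes were left out of that search. They were set against each other by RMS difference too, but with Dppa2 as the mean of its 2 probe sets. That mean holds the MEF replicate 1 reading of 0.08 from 1429654_at, which the search did not use. Among the pairs without Dppa2, the closest was Dppa4 and Dppa5a at 0.81, and the farthest Dppa3 and Dppa5a at 1.51. Dppa2 differed from Dppa5a by 1.02, from Dppa4 by 1.11 and from Dppa3 by 1.56. How far these Dppa2 values depend on 1429654_at was not tested. All RMS values, those of the search included, take in the MEF arrays, where the Dppa readings hold mostly background. They thus hold the depth of the drop to MEF as well as the stem cell levels. From AG-haESC to MEF the drop as read was 7.81 for Dppa4 and 9.70 for Dppa5a. Of the genes nearest to Dppa3 in the search, Mapt stood at 9.79 in AG-haESC and 7.23 in E14, and Folr1 at 12.43 in AG-haESC and 10.76 in E14 (mean log2 signal, n = 5 and n = 3). As both were picked for likeness to Dppa3, the search favours this direction. Epcam, nearest to Dppa5a, stood at 12.14 in AG-haESC and 12.60 in E14.

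**Figure D4:**
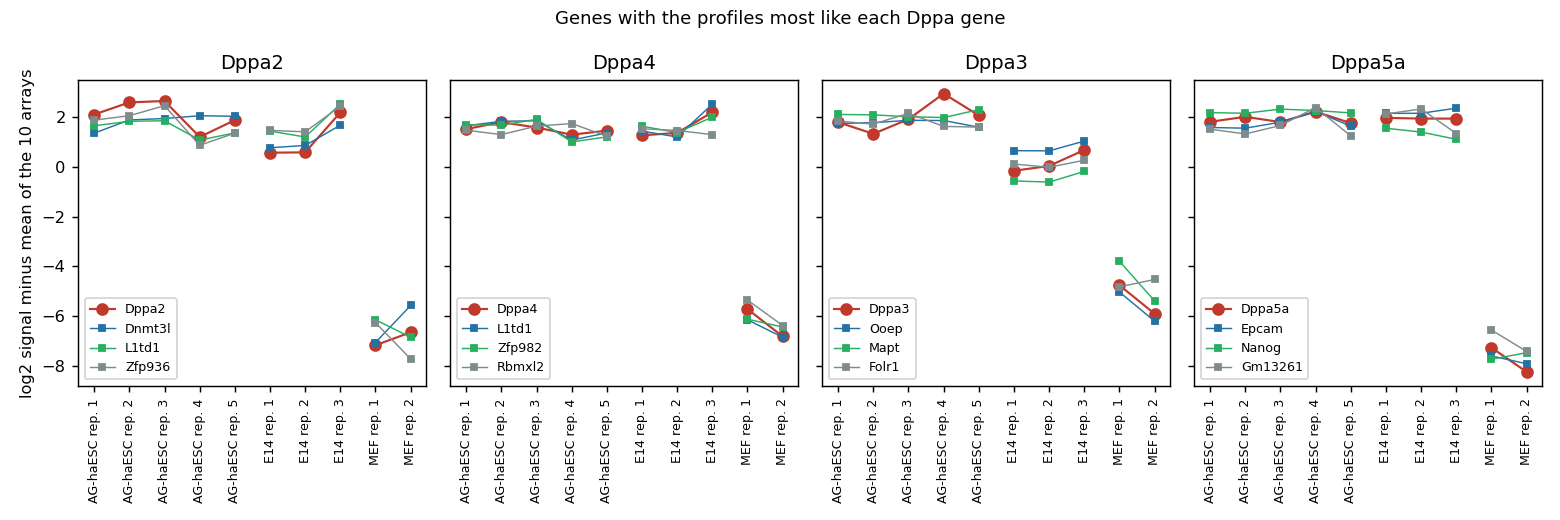
Log2 signal minus the gene's mean over the 10 arrays for each Dppa gene (red) and the 3 genes with the smallest RMS difference from it; lines join the arrays of a group as a guide. The curves drop together in MEF, and the Dppa3 panel is the one in which the Dppa gene and its nearest genes all stand lower in E14 than in AG-haESC. The genes were picked for likeness to the Dppa gene, which favours a shared direction.

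The call for Dppa3 held under all 19 alternative settings and left-out arrays, with differences of 1.59 to 2.07 and limma's adjusted p of 0.00092 to 0.0345. Dppa2 by 1453223_s_at was called under 2 of 19, and 1429654_at, Dppa4 and Dppa5a under none of theirs.

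**Figure D5:**
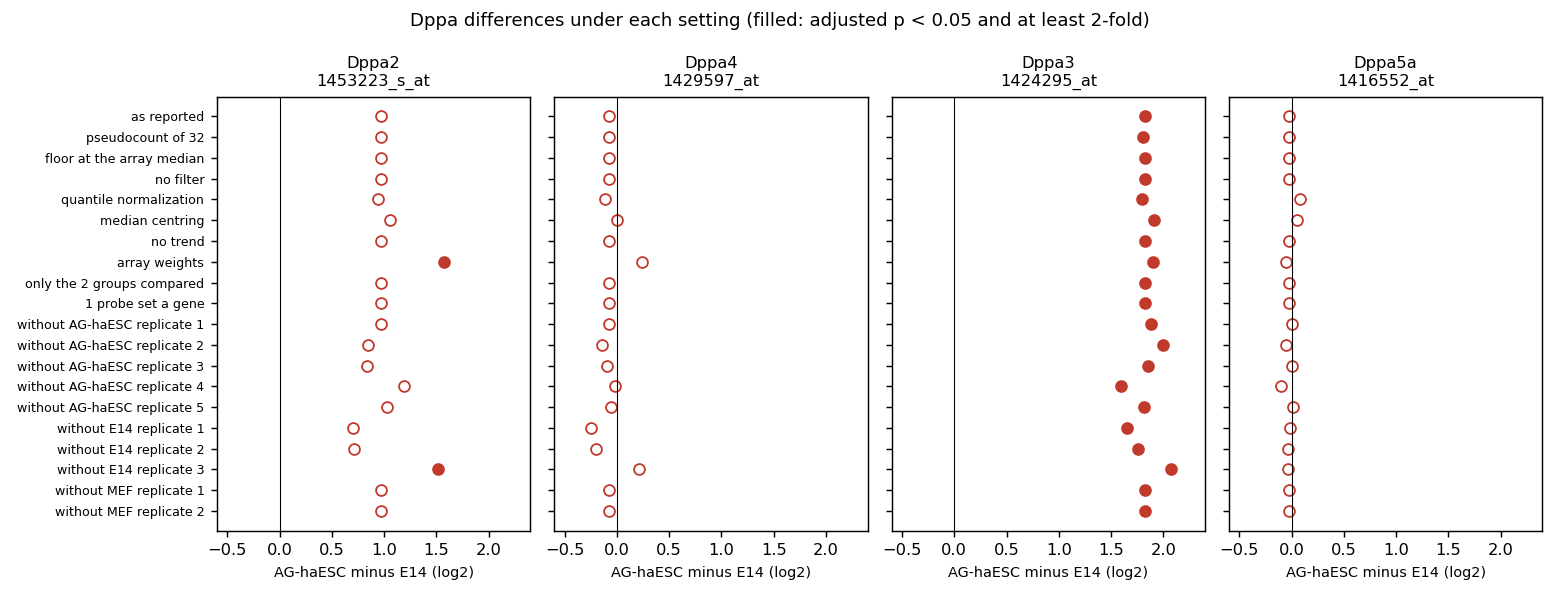
Difference in log2 signal, AG-haESC minus E14, for 1 probe set of each Dppa gene (columns) under the reported setting and each alternative (rows); filled points are called. Dppa3 is filled in every row, Dppa2 with array weights and without E14 replicate 3 only, and Dppa4 and Dppa5a stay near 0.

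The family has other named genes. Dppa1 and the pseudogenes Dppa5b, Dppa5c and Dppa3-ps are in the gene table but had no probe set under their own symbol, and were not analysed here. Transcripts of a pseudogene that resemble Dppa3 or Dppa5a could add to these signals, which was not tested.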

How the data were processed

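RNA of the 10 sorted samples was measured on Affymetrix GeneChip 430 2.0 arrays. Per probe set, the deposited value is a signal intensity that the authors made with MAS5 per the submitters' processing notes. They are linear, and their 2% trimmed mean was 500 in every array, so total RNA per cell cannot be seen. No detection call or software version is given in the sources used here, and the number of arrays limits the precision.

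Values were analysed as log2. The array has 45101 probe sets, including 64 controls; 34945 have 1 symbol in the annotation table, 932 several and 9160 none. The filter kept a probe set that exceeded the array's median in at least 2 arrays, which left 27505. Group means over all 10 arrays were fitted with limma 3.58.1 in R 4.3.3 (eBayes with trend, 7 residual degrees of freedom), with two-sided p adjusted by Benjamini-Hochberg over all probe sets kept. The script was tested on simulated data. Gene counts use the probe set of highest mean per symbol, which gave 13251 genes, with the p adjusted over probe sets. Differences are "at least" where 1 group lay below the median in each of its arrays, and that group was then put at the array medians. An adjusted p printed beside such a bound comes from the fit of the signals as deposited.

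Groups came from the labels. AG-haESC replicate numbers follow accession order and name the lines only. E14 and MEF titles call their arrays biological replicates, without naming separate cultures or embryos, so p-values may measure technical spread in part. Named genes were the 4 Dppa genes, the 3 genes with the most similar profile for each, their neighbours, up to 4 genes of each of 12 lists (called ones with the largest difference, then the most abundant), and a fixed set of pluripotency, methylation and label-check genes. The members, lists and tests were chosen with earlier results of these data known. Alternatives were a pseudocount of 32, a floor at the array median, no filter, quantile normalization, median centring, no trend, array weights, only 2 groups in the fit, 1 probe set a gene, and each array left out. Gene names, chromosomes and neighbours came from the RefSeq table of GRCm38.p6. Neighbours were the nearest tested protein-coding genes on each side, ordered by start coordinate.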

Additional observations from a re-analysis of the deposited data

Results flagged for a closer look

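None of the 5 Dppa probe sets had a line that stood apart from the other 4 by Dixon's criterion (a gap of more than 0.71 of the group's range). Among 39 probe sets of Dppa and other named genes examined in the 5 AG-haESC lines, 4 did, where about 1 in 20 groups is flagged by chance. Pou5f1 was lowest in replicate 5 at 13.35, with the next line at 13.56. Dnmt3l was lowest in replicate 1 at 11.48, with the next at 12.01. Prdm14 was lowest in replicate 4 at 10.37, with the next at 11.10, and Lef1 was lowest in replicate 3 at 7.09, with the next at 8.20 (log2 signals).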

How the results depend on the processing

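Of 1505 recomputed values for Dppa probe sets, named genes, lists and counts, 1355 kept their direction and their side of the threshold, or stayed within 1.5 times for a count. The number of Dppa probe sets called for AG-haESC against E14 was 1 as reported, 2 with array weights, and 1 to 2 with each array left out, the second being Dppa2 by 1453223_s_at without E14 replicate 3. Against MEF it was 5 for both stem cell groups with any array left out, and 4 with 1 probe set a gene, which drops 1 of the Dppa2 probe sets by construction. The small differences of AG-haESC from E14 changed sign under some settings and were never called. Dppa4 stood at 0.000625 with median centring and 0.24 with array weights (-0.25 to 0.21 with each array left out), and Dppa5a at 0.077 with quantile normalization and 0.052 with median centring (-0.10 to 0.011). L1td1 stood at 0.20 with array weights (-0.43 to 0.24), and Sox2 at 0.040 with median centring and 0.11 with array weights (-0.14 to 0.034). Pou5f1 ranged from -0.058 to 0.19 and Gata6 from -0.63 to 0.048 with each array left out. The cause was not tested. All probe sets called numbered 1997 as reported, 3321 with array weights, and 1102 genes with 1 probe set a gene. The percentage of calls that were higher in AG-haESC than in E14 was 60.2 as reported, 64.6 with quantile normalization and 69.1 with median centring. The calls of Tdrd7, Usp17la, Prdm14, Ifitm3, Dnd1, Zfp42 and Col3a1 were lost under 12, 11, 8, 6, 5, 3 and 1 alternatives. With the replicate number of E14 and MEF as a replicate block, 5 Dppa probe sets were called, and Dppa3 stood 5.28 higher in E14 than in MEF. Deviations of same-numbered arrays had r = -0.0019 and -0.036 across genes. As the deviations of the 2 MEF arrays are mirror images, this check cannot decide whether arrays were paired, and the main fit used no pairing. Signals below the array median hold mostly background, which limits every comparison with MEF to a bound.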
